A study of Mus musculus with 12 samples.

Results

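The 3 genes that differed most among the 6 iTgMir483 livers, Saa2, Saa1 and Orm2, are acute-phase genes, which hepatocytes switch on in inflammation. They were at 636 CPM or more in livers 1 and 4 and at 47.5 CPM or less in the other 4. CPM is the read count of a gene scaled to a common library total, here with TMM factors (trimmed mean of M-values). The livers analysed were the 6 libraries titled as iTgMir483 of the 12 liver RNA-seq libraries in the series, and the numbers 1 to 6 below are their replicate numbers. For these, 10457 of 55401 genes reached a mean count of 50, and each was described by the SD of its log2 CPM over the 6 livers, with the SD over the 6 Control livers as the reference.

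All 12 animals were females of 15 weeks on a C57BL/6J background, fed standard chow. An iTgMir483 animal carries 1 extra copy of Mir483, driven by a Tet-off (doxycycline-repressed) tTA system at the ubiquitously active Rosa26 locus. Doxycycline in the dams' drinking water held the transgene off through pregnancy, and its withdrawal after birth switched it on. The sample descriptions name a cross with CMV-Cre, a ubiquitous deleter that removed the Neo cassette, for the Control littermates as well, and their genotype is not stated further in the labels. The transgene acts in all tissues, so the livers are not a model of an effect restricted to hepatocytes. The labels do not say which animals shared a litter. The p-values below set a difference, slope or correlation against the spread between these samples.

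Mir483 encodes a microRNA that sits within an intron of Igf2, the fetal growth factor gene, and Igf1 encodes the main circulating growth factor made by the liver. A microRNA pairs with target messenger RNAs through its seed, bases 2 to 8 from its 5′ end, and lowers their level or translation. The liver transcriptome also shifts with feeding, glucocorticoids, infection, sex hormones and time of day, each through known sets of genes, and these sets are used below to describe what varied together. The mature sequences of the transgene's microRNA are shown here because its level is the variable that sets these 6 livers apart from Control. They are from RefSeq (GRCm38.p6), on the minus strand of chr7, with the seed in capitals.
mmu-miR-483-3p: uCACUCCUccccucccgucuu
mmu-miR-483-5p: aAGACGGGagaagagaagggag

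Mir483 was counted at 373, 761, 442, 318, 697 and 618 reads in livers 1 to 6, and at 0 reads in each Control liver. Its level was 27.2, 54.3, 26.5, 23.3, 43.7 and 47.8 CPM, with a log2 SD of 0.52. Livers 2, 5 and 6 were the high ones, and liver 4 was the lowest. In these polyadenylated RNA libraries the count reads the longer transcript over the locus (chr7:142654924-142654996, GRCm38), not the mature microRNA, and it cannot separate transgenic from endogenous transcript. Total counts ran from 12415140 to 15846175 in the iTgMir483 libraries and from 12244123 to 30431286 in Control, and 1 Control library was deeper than all others. Hepatocyte markers were abundant in every liver. The summed level of 24 of them was 130950, 157090, 194690, 150040, 182940 and 202850 CPM in livers 1 to 6 and 192430 to 245310 CPM in Control, and the adipose genes Adipoq and Lep and the muscle gene Ckm were at 0 in all 6. Livers 1 and 4 stood apart from the other iTgMir483 livers, and Control liver 1 from the other Control livers. SDs were therefore also taken without any 1 iTgMir483 liver and without livers 1 and 4 together. Where a gene SD (of at least 0.1) or list median SD moved by over 1.5 times, at least 1 such value is given. Where that value leaves out a single liver, leaving out livers 1 and 4 together may lower the SD further.

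The female label held in the sex-linked genes: Xist, the transcript that silences an X chromosome, ran from 456 to 887 CPM over the 12 libraries, and the Y-linked genes Ddx3y, Eif2s3y, Kdm5d and Uty were at 0 in each. In Control liver 1, however, the female-biased liver genes were low, with a list level of -2.5, and the male-biased ones high, at 1.33, relative to the mean of the 6 Control livers. This library therefore sets the Control SD of many sex-biased and fatty acid oxidation genes. Where leaving it out moved a Control SD by over 1.5 times, or changed which group had the larger SD, the value over the other 5 Control livers is given as well.

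Each liver's distance from the mean of the other 5 of its group was taken as the root mean square over 10193 genes whose mean count reached 50 in each group. In iTgMir483 livers 1 to 6 it was 0.418, 0.355, 0.282, 0.448, 0.255 and 0.289 log2 units, and in Control livers 1 to 6 it was 0.46, 0.252, 0.269, 0.205, 0.257 and 0.28. The ranges overlapped. The means were 0.341 ± 0.0789 (SD, n = 6) and 0.287 ± 0.0886 (SD, n = 6), a difference of 0.0539 that did not exceed the spread between libraries (two-sided exact permutation test, p = 0.284, smallest attainable p = 0.00216). Without Control liver 1 the difference was 0.101 (exact permutation p = 0.0281). Without iTgMir483 livers 1 and 4 it was -0.0135 (exact permutation p = 0.833). Over the same genes the median SD was 0.234 in iTgMir483 and 0.197 in Control, and 64.3% of genes had the larger SD in iTgMir483. Without Control liver 1 the Control median was 0.175 and the share 71.6%. Genes move together within a liver, so that share is a description of these 12 libraries.

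**Figure D1:**
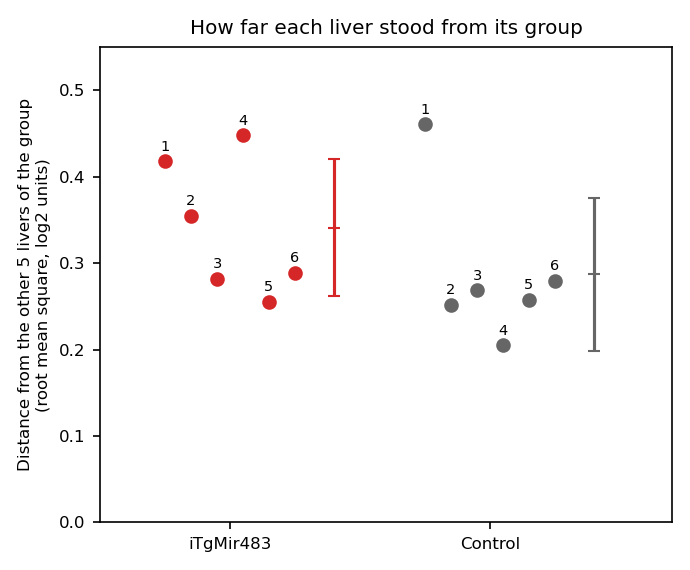
Distance of each liver from the mean of the other 5 livers of its group, in log2 units (vertical axis), for the 6 iTgMir483 and 6 Control livers, with replicate numbers and, beside the points, the mean ± SD. iTgMir483 livers 1 and 4 and Control liver 1 lie above 0.4, and the ranges of the groups overlap.

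Among the 10457 genes the median SD over the iTgMir483 livers was 0.237, against 0.20 in Control, and the 95th percentile was 0.65. An SD of at least 1, which corresponds to a typical deviation of a doubling or halving, was found for 152 genes (1.45%) in iTgMir483 and for 82 in Control (30 without Control liver 1), 40 of them in both. Without livers 1 and 4 the number in iTgMir483 was 59. The SD was at least 2 times that of Control for 15.2% of genes, or 24.6% without Control liver 1, and 17 of the 50 most variable genes in iTgMir483 were also among the 50 most variable in Control. The gene just inside the minimum had a mean count of 50 and the one just outside 49.8. Counting noise was small beside these values: Poisson sampling alone gave a median SD of 0.0823. Of 44 gene lists with at least 3 measured members, 42 had a median SD above that of all genes. Most of these lists were also above the median of all genes in Control, so this count is not particular to iTgMir483. The wide genes were spread by particular livers. Of the 300 most variable genes, 120 had liver 4 as the one farthest from the mean and 110 had liver 1, which is 40% and 36.7%, against 27.2% and 22.7% of all genes. Liver 2 was the farthest for 24.3% of all genes, but for 29 of the 300. Liver 4 was the highest of the 6 for 135 of the 300 and liver 1 the lowest for 113. In a principal component analysis of the 6 livers, component 1 held 35% of the variance and had liver 4 at its end, component 2 held 31.3% with liver 1 at its end, and component 3 held 17.7% with liver 2 at its end.

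**Figure D2:**
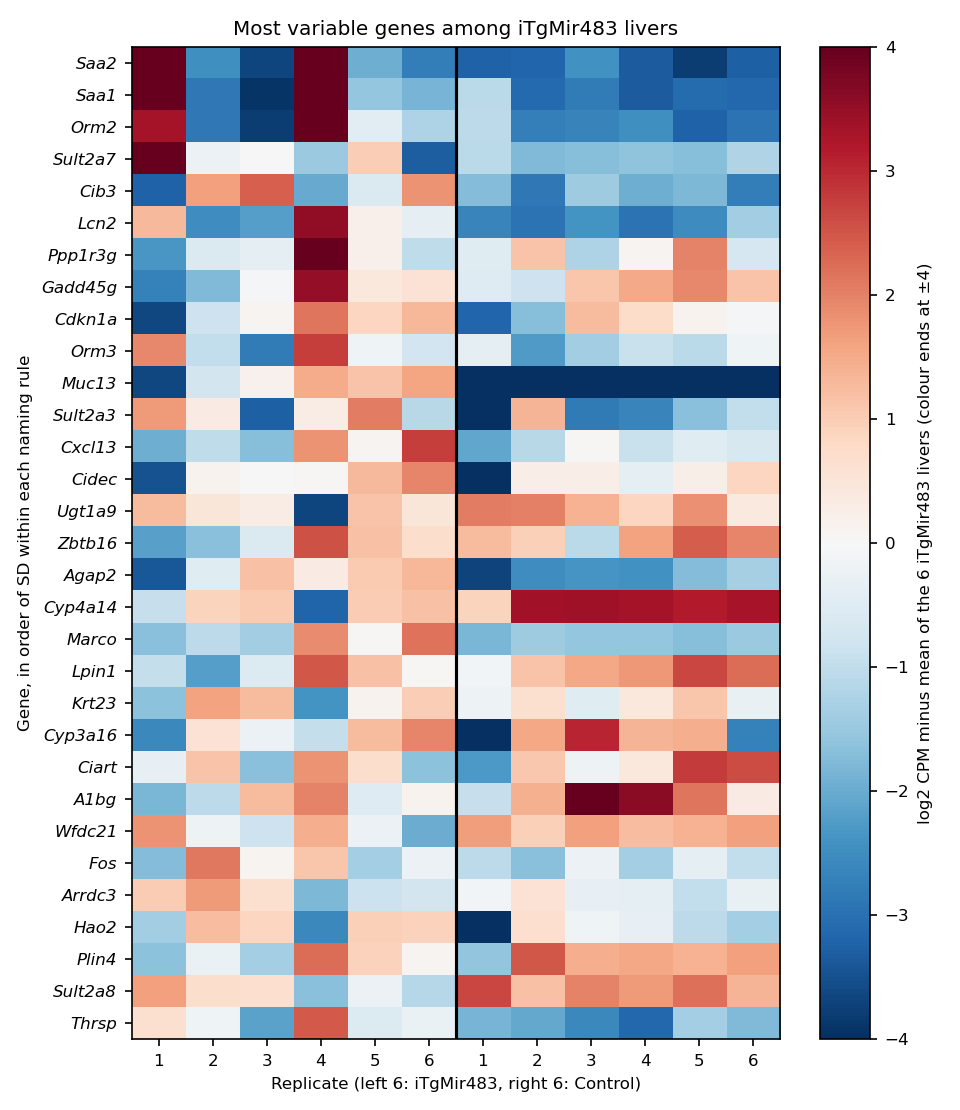
Log2 CPM minus the mean of the 6 iTgMir483 livers (colour, ends at ±4) for annotated genes with the largest SD and for those with the largest SD once their farthest liver is left out (rows), in the 6 iTgMir483 and 6 Control livers (columns). The Saa and Orm genes are red in iTgMir483 livers 1 and 4 alone, a second set led by Gadd45g is red in liver 4, and several rows are blue in liver 1.

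The 3 largest SDs belonged to acute-phase genes. These encode plasma proteins that hepatocytes secrete in inflammation, mostly under interleukin-6 and interleukin-1. Saa2 (serum amyloid A2, chr7:46751790-46754313) was at 2076, 11.1, 4.62, 3214, 15.6 and 8.82 CPM in livers 1 to 6 (SD 4.23, or 0.73 without livers 1 and 4, against 0.44 in Control). Its close copy Saa1 was at 3356, 16.5, 7.86, 5166, 41.4 and 33.7 CPM (SD 4.04, or 1.08 without livers 1 and 4, against 0.83 in Control, 0.19 without Control liver 1). Livers 1 and 4 did not overlap with the other 4, which lay in or near the Control range of 4.22 to 11.2 CPM for Saa2. Reads of these near-identical copies may be split between them by the counting, so their separate levels are uncertain. Orm2, which encodes an orosomucoid, was at 636, 8.71, 4.5, 2020.2, 47.5 and 27.2 CPM (SD 3.46, or 1.53 without livers 1 and 4, against 0.77 in Control, 0.30 without Control liver 1). Its neighbour Orm3 was at 41.9, 5.57, 1.5, 76.5, 9.84 and 6.5 CPM (SD 2.03, or 1.13 without livers 1 and 4, against 0.76 in Control). Lcn2, the iron-scavenging lipocalin 2, was at 146, 10.3, 12.7, 694, 67.1 and 46 CPM (SD 2.26, or 1.33 without livers 1 and 4, against 0.57 in Control). For Orm2 and Lcn2 liver 4 was highest and liver 1 next, and livers 5 and 6 were above livers 2 and 3.

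All 28 listed acute-phase genes were measured, and 25 were highest in liver 4, where 23% of all genes were highest. The list level, the mean of its members' log2 CPM relative to the 6 livers, was 0.69, -0.72, -0.97, 1.7, -0.26 and -0.45 in livers 1 to 6. The median SD of members was 0.76 against 0.32 in Control, beside 0.24 and 0.20 over all genes. The SD was at least 1 for 9 members, and at least 2 times that of Control for 15 of 27. Without liver 4 the median was 0.43, and without livers 1 and 4 it was 0.44. The mean correlation between pairs of members over the 6 livers was 0.59, beside 0.00139 over all pairs of genes, as a description of 6 points in which 2 livers lead. Crp, C-reactive protein, which is a minor acute-phase gene in mice, varied least of the list at 248, 144, 232, 173, 227 and 209 CPM (SD 0.30). Albumin, whose transcript is known to be lower in the acute phase, was at 48772, 74219, 100160, 35996, 89441 and 107840 CPM, with livers 4 and 1 the lowest, and 93613 to 135520 CPM in Control. The hepatocyte marker Ttr was also lowest in liver 4, at 2513 CPM, but highest in liver 1, at 4707 CPM. Of the 24 hepatocyte markers, 6 were lowest in liver 1 and 3 in liver 4, where 19.6% and 22% of all genes were lowest. Liver 4 was the highest for 10 of the 24, and their list level was highest there, at 0.25.

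The promoters of the 4 most variable members are shown because these genes were high in the same livers. Each runs from 250 bases before to 50 bases after the annotated start (RefSeq, GRCm38.p6), 5′ to 3′ along the gene. Capitals mark matches on either strand to TTNNGNAA, letters bound by C/EBP factors, known activators of acute-phase genes.
Saa2 (chr7:46751583-46751882, plus strand): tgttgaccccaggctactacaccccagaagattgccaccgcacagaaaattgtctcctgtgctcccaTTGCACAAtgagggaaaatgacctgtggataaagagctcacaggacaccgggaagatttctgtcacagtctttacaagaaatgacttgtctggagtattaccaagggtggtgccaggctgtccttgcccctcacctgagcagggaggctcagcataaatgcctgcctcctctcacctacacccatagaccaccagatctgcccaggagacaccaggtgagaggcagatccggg
Saa1 (chr7:46742931-46743230, minus strand): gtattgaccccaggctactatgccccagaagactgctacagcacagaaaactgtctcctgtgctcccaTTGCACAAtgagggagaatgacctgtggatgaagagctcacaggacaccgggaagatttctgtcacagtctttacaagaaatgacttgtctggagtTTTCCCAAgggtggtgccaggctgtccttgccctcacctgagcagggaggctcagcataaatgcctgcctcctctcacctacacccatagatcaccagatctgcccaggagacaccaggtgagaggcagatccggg
Orm2 (chr4:63362199-63362498, plus strand): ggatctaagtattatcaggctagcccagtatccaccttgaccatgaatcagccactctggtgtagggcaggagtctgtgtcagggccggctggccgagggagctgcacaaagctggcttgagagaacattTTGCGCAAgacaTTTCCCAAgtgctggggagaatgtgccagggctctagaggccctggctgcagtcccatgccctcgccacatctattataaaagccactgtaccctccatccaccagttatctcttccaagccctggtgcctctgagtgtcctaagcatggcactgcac
Lcn2 (chr2:32387690-32387989, minus strand): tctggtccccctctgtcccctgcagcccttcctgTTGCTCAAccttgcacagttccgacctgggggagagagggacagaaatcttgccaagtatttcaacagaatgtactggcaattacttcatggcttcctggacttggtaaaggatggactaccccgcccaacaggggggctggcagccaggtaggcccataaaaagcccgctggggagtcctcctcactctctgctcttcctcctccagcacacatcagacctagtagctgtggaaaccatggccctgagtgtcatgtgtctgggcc
The Saa2, Saa1, Orm2 and Lcn2 windows held 1, 2, 2 and 1 matches. The same letters were found in 16 of the 24 acute-phase genes with a promoter sequence and in 40.7% of 32851 promoters. None of the 4 windows held GGGANTTTC, letters like those bound by NF-kB (1.11% of promoters), or TTCNNNGAA, letters like those bound by STAT factors (8.3%). Over the 24 acute-phase promoters, however, the STAT-like letters were found in 8, among them Fga, Fgb and Hamp, and the NF-kB-like letters in 0. Matches were searched on both strands and may overlap, and they describe letters, not bound sites.

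**Figure D3:**
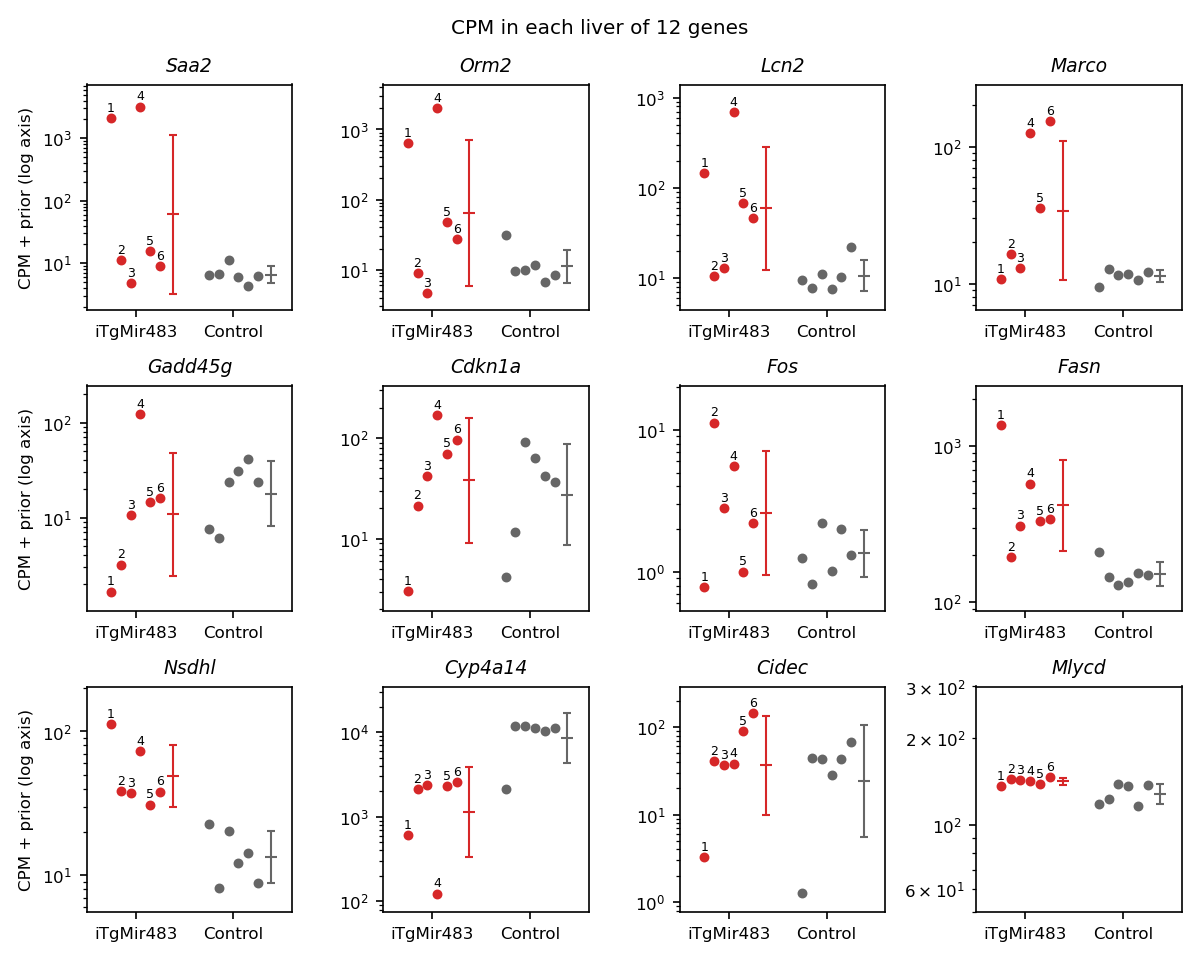
CPM plus a prior of 2 reads at the mean depth (log axis) of 12 genes in each iTgMir483 liver (red, numbered) and each Control liver (grey), with the mean ± SD of the log2 values beside the points. Saa2, Orm2 and Lcn2 are high in livers 1 and 4, Marco in 4 and 6, Gadd45g in 4, Fos in 2 and 4, Fasn and Nsdhl in 1, while Cyp4a14 is low in 4 and 1, Cidec in 1, and Mlycd is nearly level.

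The same question was asked per gene by testing whether absolute deviations from the group mean differed between groups (limma with Benjamini-Hochberg adjustment). Of 10193 genes, 2 were called (0.0196%), both with the wider spread in iTgMir483. For Saa2 the mean absolute deviation was 3.95 in iTgMir483 and 0.30 in Control, a difference of 3.66 ± 0.54 (SE, limma adjusted p = 1.7e-07). For Saa1 it was 3.72 and 0.61, a difference of 3.12 ± 0.53 (SE, limma adjusted p = 2.3e-05). Both calls were lost without liver 1 (limma adjusted p = 0.364 for Saa2 and 0.424 for Saa1), without liver 4 (0.377 and 0.462) and with deviations taken from the group median (0.998 for each). On simulated counts the test found genes in which 2 of 6 libraries were shifted by several log2 units. It missed genes whose noise alone was wider, and smaller shifts were not simulated. A gene that was not called may therefore still differ in spread. No gene was called with the smaller spread in iTgMir483, and an unadjusted p under 0.05 was found for 749 genes in the direction of wider spread and 174 in the other.

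The lowest p values in that other direction belonged to Sult2a1, Nags and Sult2a2. Sult2a1, a sulfotransferase for steroids and bile acids that is far higher in female than in male liver, was at 167, 402, 136, 149, 384 and 313 CPM in iTgMir483 livers 1 to 6. In Control livers 1 to 6 it was at 0.188, 749, 277, 321, 459 and 574 CPM (limma adjusted p = 0.102). Control liver 1 alone was near 0, and the SD was 0.72 against 4.31 in Control, 0.59 without Control liver 1, so the direction of the difference turned without that liver. Sult2a2 was at 254, 299, 143, 199.9, 265 and 204 CPM (SD 0.38, or 0.25 without liver 3, against 3.59 in Control, 0.47 without Control liver 1, limma adjusted p = 0.367). Nags, the enzyme that makes the activator of the urea cycle, had the smallest SD of all genes, 0.0178, at 63.2, 62.6, 61.4, 61.3, 62 and 62.8 CPM (0.24 in Control, limma adjusted p = 0.28). With the counting variance taken off, the SD of Nags was 0, so its spread cannot be told apart from counting noise. The 29 measured female-biased genes had a median SD of 0.66 against 1.1 in Control and 0.55 without Control liver 1. Their narrower spread in iTgMir483 thus held only with Control liver 1 included.

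**Figure D4:**
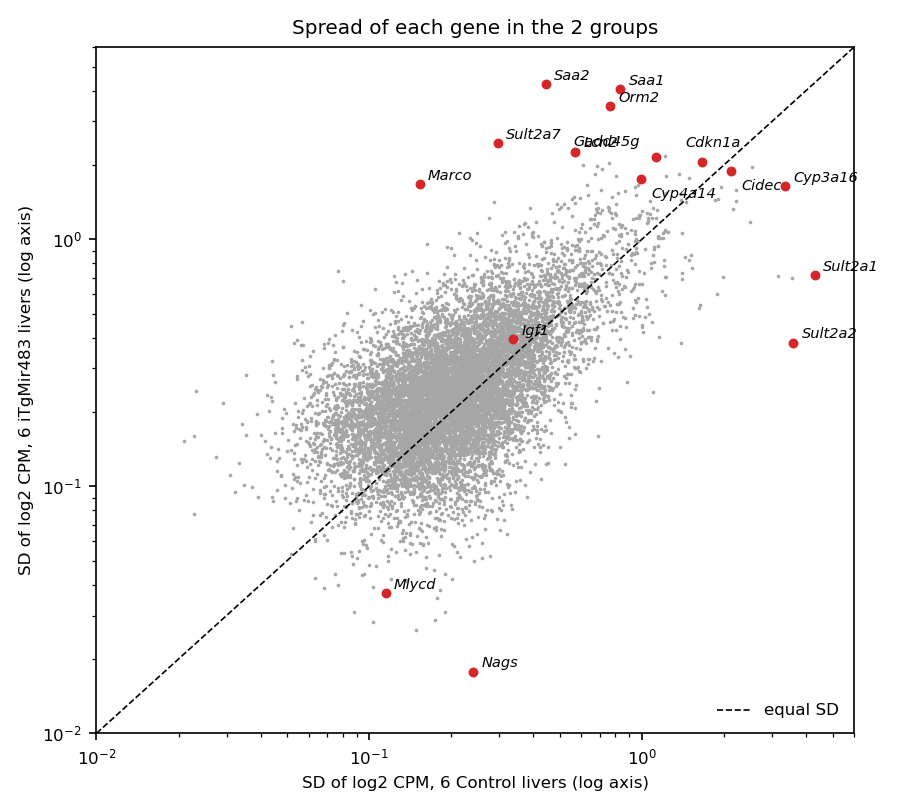
SD of log2 CPM over the 6 Control livers (horizontal, log axis) against that over the 6 iTgMir483 livers (vertical, log axis), 1 point a gene whose mean count reached 50 in iTgMir483 (genes with no Control variance left out), with the dashed line at equal SD. Saa2, Saa1, Orm2, Sult2a7 and Marco lie far above the line, and Sult2a1, Sult2a2 and Nags below it, the Sult2a genes through Control liver 1.

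Complement and coagulation genes, whose products hepatocytes also secrete, were highest in liver 4 for 27 of 33 members and lowest in liver 2 for 22. Their list level was 0.10, -0.41, -0.07, 0.63, -0.16 and -0.08 in livers 1 to 6, with a median SD of 0.37 against 0.21 in Control. C3, the central complement component, was at 9026, 5440, 10359, 23407, 10060 and 13271 CPM (SD 0.69), and 8968 to 13050 CPM in Control. C8a, a subunit of the membrane attack complex, varied most at 352, 59.2, 160.2, 906, 126 and 198 CPM (SD 1.34, or 0.76 without livers 1 and 4, against 1.09 in Control, 0.56 without Control liver 1). C4b was at 1610.3, 776, 1047, 3162, 1282 and 1243 CPM (SD 0.69, or 0.39 without liver 4, against 0.15 in Control). C8g had the smallest SD of the list, 0.13. Liver 1, which shared the high Saa and Orm levels, was near the mean for this list. Without liver 4 the median SD was 0.22.

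By list level, macrophage genes were highest in liver 4 and lowest in liver 3, as the acute-phase list was. By member counts, 15 of the 28 acute-phase genes were lowest in liver 2 and 10 in liver 3. Marco and Cxcl13 were highest in liver 6. In bulk RNA, fewer cells of a type and less RNA per cell cannot be told apart, so these levels do not count cells. Marco, a scavenger receptor of macrophages, was at 10.6, 16.3, 12.9, 125, 35.2 and 154 CPM in livers 1 to 6 and 9.41 to 12.7 CPM in Control (SD 1.68 against 0.15 in Control, 0.10 without Control liver 1). Livers 4 and 6 were high, liver 5 was between, and livers 1 to 3 were close to the Control range. Cxcl13, a chemokine that attracts B cells, was at 1.46, 2.93, 1.74, 21.3, 6.45 and 41.3 CPM (SD 1.93 against 0.71 in Control, 0.44 without Control liver 1), with the same 3 livers highest. Cd14, the co-receptor for bacterial lipopolysaccharide, was at 2.84, 6.99, 4.02, 23.7, 8.96 and 11.5 CPM (SD 1.07, or 0.64 without livers 1 and 4, against 0.62 in Control). Of 23 measured Kupffer cell and macrophage genes 19 were highest in liver 4 and 15 lowest in liver 3, and the SD was at least 2 times that of Control for 14. The list level was -0.24, -0.21, -0.49, 0.87, -0.01 and 0.08, and the median SD 0.45 against 0.24 in Control. The resident Kupffer cell marker Timd4, at 16.4, 11.5, 7.02, 33.9, 13.7 and 23.4 CPM, and the macrophage gene Mpeg1, at 132, 101, 81.9, 343, 113 and 119 CPM, were highest in liver 4, and Cd9 varied least (SD 0.21, or 0.12 without liver 2). The summed level of all 31 listed genes was 1159, 1198, 979, 2620, 1303 and 1443 CPM in livers 1 to 6 and 614 to 906 CPM in Control. Without liver 4 the median SD of the list was 0.26. The part of macrophage content in the acute-phase levels was not tested.

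Antigen presentation genes split by class. The class I list was highest in liver 4 for all 15 members, with list levels of -0.20, 0.08, -0.13, 0.56, -0.16 and -0.15 and a median SD of 0.38 against 0.16 in Control. Without liver 4 the median SD was 0.23. H2-Q4 was at 41.5, 76.9, 59, 105, 51.3 and 45.7 CPM (SD 0.50, or 0.32 without livers 1 and 4, against 0.08 in Control), H2-Q7 at 38.7, 52.2, 35.1, 88.7, 38.7 and 37.8 CPM (SD 0.51, or 0.22 without liver 4, against 0.12 in Control), and H2-Q6, the most variable, had an SD of 0.52. H2-Q10, a secreted form made by the liver, had the smallest at 0.18. Genes of this family are close copies, so their separate counts are uncertain. All 5 measured class II genes were instead highest in liver 2, with list levels of -0.37, 0.78, 0.04, 0.28, -0.34 and -0.39 and a median SD of 0.52 against 0.47 in Control and 0.52 without Control liver 1. H2-Eb1 was at 14, 36.1, 20.5, 25.5, 15 and 14.4 CPM (SD 0.55), and without liver 2 the median SD was 0.33. Cd74, the invariant chain that guides class II molecules, was at 56.4, 113, 72.8, 83.2, 56.3 and 47 CPM (SD 0.46).

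Genes of the glucocorticoid response and of fasting separated liver 4 from liver 1. Glucocorticoids and fasting both drive hepatic glucose output, and the lists share members such as Mt2, so they are not independent. Nor are they independent of the acute-phase list, which shares 3 measured members with the glucocorticoid list and 2 with the fasting list. The largest SD of the glucocorticoid list is that of Lcn2, given above with the acute-phase genes. Gadd45g, a growth arrest gene induced by stress and fasting, was at 1.53, 3.07, 10.4, 124, 14.4 and 15.9 CPM (SD 2.16, or 1.07 without livers 1 and 4, against 1.13 in Control). Cdkn1a, the cell cycle inhibitor p21, was at 2.91, 21.2, 41.4, 169, 69.7 and 96.1 CPM (SD 2.06, or 1.14 without liver 1, against 1.66 in Control). Liver 4 was highest and liver 1 lowest for both. Zbtb16, a direct target of the glucocorticoid receptor, was at 4.15, 5.92, 12.8, 114, 43.7 and 31.4 CPM (SD 1.81 against 1.23 in Control). All 3 are growth or differentiation regulators, and for Zbtb16 as for the others livers 1 and 2 were the lowest. Igfbp1, an insulin-suppressed binding protein for insulin-like growth factors, was at 46.7, 239, 412, 1335, 346 and 396 CPM (SD 1.57, or 0.93 without liver 1, against 0.87 in Control). Lpin1, a phosphatidate phosphatase and transcriptional coactivator induced by fasting, was at 53.6, 22.1, 70.6, 579, 235 and 106 CPM (SD 1.65 against 0.97 in Control, 0.60 without Control liver 1). Lpin1 was lowest in liver 2, and here it was counted in the lipogenesis list, of which it had the largest SD. Ppp1r3g, a glycogen-targeting subunit of protein phosphatase 1, was at 0.291, 1.28, 1.5, 36, 2.32 and 0.929 CPM (SD 2.18, or 0.96 without liver 4, against 1.22 in Control), with liver 4 alone far from the others.

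All 13 glucocorticoid genes were measured, 12 of them highest in liver 4 and 10 lowest in liver 1. Their list level was -0.67, -0.49, -0.51, 1.61, 0.15 and -0.09 in livers 1 to 6, and the median SD 1.03 against 0.57 in Control. Without liver 4 it was 0.61. The metallothionein Mt2, which binds zinc, was at 297, 159, 67.2, 932, 119 and 72 CPM (SD 1.43, or 0.88 without liver 4, against 1.07 in Control), and Klf9 varied least (SD 0.23). Of 17 gluconeogenesis and fasting genes 14 were highest in liver 4 and 10 lowest in liver 1, with list levels of -0.93, -0.13, -0.26, 1.18, 0.14 and 0.00 and a median SD of 0.73, or 0.41 without livers 1 and 4, against 0.52 in Control and 0.34 without Control liver 1. Control liver 1 was also the lowest of its group for this list, at -0.55. Tdo2, which starts tryptophan breakdown, varied least of these, with an SD of 0.27, or 0.10 without liver 3. In Control the SD of Gadd45g, Cdkn1a and Zbtb16 was also above 1, with or without Control liver 1. The labels give no time of day, fasting state or handling per animal, and their part in these levels was not tested.

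Immediate-early genes, whose transcripts appear within minutes of a stimulus, were highest in liver 2 for 9 and in liver 4 for 9 of 18 members. The list level was -0.85, 0.75, -0.10, 0.79, -0.34 and -0.26, and the median SD 0.80 against 0.59 in Control. Fos, a subunit of the AP-1 transcription factor, was at 0.655, 11.1, 2.7, 5.42, 0.877 and 2.09 CPM (SD 1.46 against 0.56 in Control). Btg2, an antiproliferative gene, was at 10.7, 100.1, 30.6, 101, 32.2 and 40.9 CPM (SD 1.21, or 0.79 without livers 1 and 4, against 0.65 in Control), and Dusp1, a phosphatase that switches off MAP kinases, at 17.3, 51.6, 21.9, 179, 28.3 and 33.7 CPM (SD 1.21, or 0.60 without liver 4, against 0.64 in Control). Liver 1 was lowest for 10 members, and Klf6 had the smallest SD, 0.37.

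**Figure D5:**
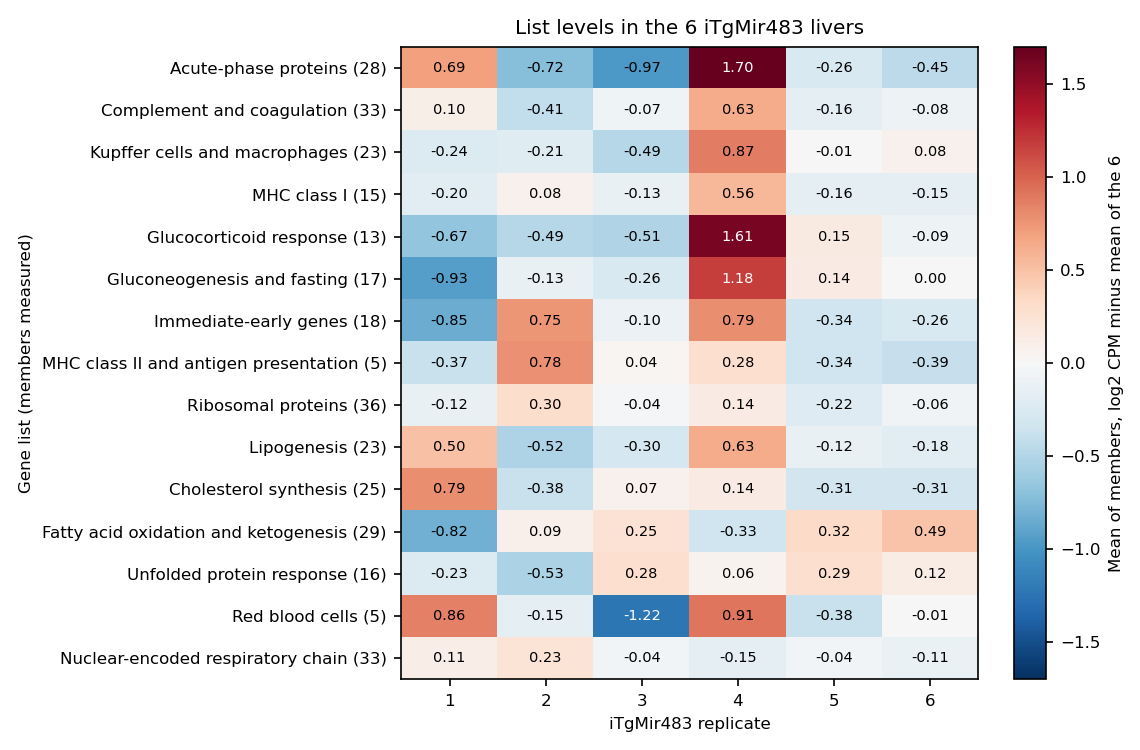
List level (mean over members of log2 CPM minus the mean of the 6 livers; number in each cell) of 15 gene lists (rows, with the number of members measured) in the 6 iTgMir483 livers (columns). Liver 4 holds the highest level of the acute-phase, complement, macrophage, class I, glucocorticoid and fasting lists, liver 1 that of cholesterol synthesis with the lowest of fatty acid oxidation, and liver 2 that of class II and ribosomal genes.

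Lipid genes set liver 1 apart. Of 25 cholesterol synthesis genes 21 were highest in liver 1, where 20.8% of all genes were highest. Their list level was 0.79, -0.38, 0.07, 0.14, -0.31 and -0.31, the median SD 0.52 against 0.30 in Control and the mean pairwise correlation 0.67. These genes share SREBP2 as their activator. Without liver 1 the median SD was 0.32. Nsdhl, a sterol dehydrogenase of the pathway, was at 113, 38.3, 37.4, 72.8, 30.8 and 38 CPM (SD 0.72, or 0.47 without liver 1, against 0.60 in Control), and Insig1, which holds SREBPs back, at 266, 86.1, 105, 109, 88.2 and 69.2 CPM (SD 0.68, or 0.26 without liver 1, against 0.57 in Control, 0.36 without Control liver 1). Fdps had an SD of 0.75, or 0.27 without liver 1, and Hsd17b7 the smallest of the list, 0.21. Among 23 lipogenesis genes 11 were highest in liver 1 and 10 in liver 4, and the level was 0.50, -0.52, -0.30, 0.63, -0.12 and -0.18 with a median SD of 0.55, or 0.33 without livers 1 and 4, against 0.42 in Control and 0.22 without Control liver 1. Fasn, fatty acid synthase, was at 1353, 195, 309, 575, 330.0 and 342 CPM (SD 0.97, or 0.56 without liver 1, against 0.25 in Control, 0.11 without Control liver 1). Thrsp, a lipogenic regulator responsive to thyroid hormone and carbohydrate, was at 261, 151, 38.1, 933, 117 and 142 CPM (SD 1.51, or 0.93 without livers 1 and 4, against 0.64 in Control), and Aacs, which activates acetoacetate for lipid synthesis, at 77, 13.8, 23, 115, 34 and 30.2 CPM (SD 1.13, or 0.57 without livers 1 and 4, against 0.38 in Control). Fads1, a fatty acid desaturase, was nearly level (SD 0.10, or 0.05 without liver 4). Control liver 1 was likewise the highest of its group for both lists, at 0.27 for cholesterol synthesis and 0.23 for lipogenesis relative to the Control mean.

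Fatty acid oxidation and ketogenesis genes, many of them PPARα targets, were lowest in liver 1 for 20 of 29 members and in liver 4 for 7. The list level was -0.82, 0.09, 0.25, -0.33, 0.32 and 0.49 in livers 1 to 6, and the median SD 0.44, or 0.24 without livers 1 and 4, against 0.41 in Control and 0.15 without Control liver 1. Cyp4a14, a fatty acid hydroxylase, was at 603, 2102, 2342, 123, 2319.8 and 2559 CPM (SD 1.76, or 0.88 without liver 4, against 0.99 in Control, 0.09 without Control liver 1), with liver 4 the lowest, liver 1 next and the other 4 close together. Cyp4a10 was at 520.2, 2726, 3021, 738, 3172 and 3512 CPM (SD 1.21, or 0.15 without livers 1 and 4, against 0.98 in Control, 0.15 without Control liver 1). Cidec, which enlarges lipid droplets, was at 3.13, 40.6, 36.7, 38.1, 90.5 and 143 CPM (SD 1.89, or 0.89 without liver 1, against 2.12 in Control, 0.44 without Control liver 1), with liver 1 far below the rest. Pdk4, which shuts glucose out of oxidation, was at 10.6, 23.9, 33, 112, 33.6 and 78.2 CPM (SD 1.21, or 0.73 without livers 1 and 4, against 0.93 in Control), highest in liver 4. Slc25a20, the mitochondrial carnitine carrier, varied least (SD 0.17). The Control level of this list had its lowest value in Control liver 1, -1.1, so each group held a liver low in these genes, and the close medians of the groups rest on it. Plin4, another lipid droplet gene, was highest in liver 4 and lowest in liver 1, at 8.59, 22.3, 10.6, 128, 51.7 and 28.9 CPM (SD 1.45, or 0.94 without livers 1 and 4, against 1.4 in Control, 0.45 without Control liver 1).

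Zonation, drug metabolism and urinary protein genes set liver 1 apart as well, and Control liver 1 stood apart in the same direction. Major urinary proteins and the hepatic drug-metabolizing enzymes depend on the pattern of growth hormone release, which differs between the sexes. Mup20 was at 80.1, 8.85, 13.4, 5.06, 10.6 and 5.5 CPM (SD 1.44, or 0.60 without liver 1, against 1.85 in Control, 0.59 without Control liver 1), and Mup3 at 394, 87.4, 85.4, 87.3, 71.2 and 39.8 CPM (SD 1.1, or 0.49 without liver 1, against 0.80 in Control, 0.45 without Control liver 1). Reads of the many Mup copies may be split, so these levels are uncertain. All 3 measured Mup genes were highest in liver 1, and without that liver the median SD of the list was 0.49 beside 1.1. Among male-biased genes, 7 of 11 were highest in liver 1, where Cyp2d9 was at 123 CPM against at most 43 CPM in the other 5. Of 23 genes expressed around the central vein 13 were highest in liver 1, led by Cyp1a2, a drug-metabolizing cytochrome P450, at 629, 151, 112, 285, 187 and 108 CPM (SD 0.96, or 0.58 without liver 1, against 0.80 in Control, 0.39 without Control liver 1). The CAR and PXR targets, genes of foreign compound clearance, were highest there for 11 of 21, with a median SD of 0.60, or 0.31 without livers 1 and 4, against 0.46 in Control and 0.27 without Control liver 1. Cyp2c54 was at 205, 52.4, 81.3, 83.9, 20.4 and 21.7 CPM (SD 1.27 against 0.77 in Control). Relative to the mean of its own group, the level of the Mup list was 1.7 and 2.44 in iTgMir483 liver 1 and Control liver 1, that of the male-biased list 0.70 and 1.33, that of the pericentral list 0.43 and 0.44 and that of the CAR and PXR targets 0.46 and 0.12. The liver numbered 1 was the highest of its group for all 4 lists in iTgMir483 and in Control.

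Periportal genes went the other way, 11 of 23 being highest in liver 4. Sds, which breaks down serine for glucose production, was at 80.1, 214, 109.7, 521, 112 and 114 CPM (SD 0.98, or 0.52 without liver 4, against 0.32 in Control). Tat, which starts tyrosine breakdown and is a classic glucocorticoid target, was at 612, 1124, 1256, 5229, 2022 and 1467 CPM. Its SD was 1.03, or 0.63 without liver 4 and 0.37 without livers 1 and 4, against 0.73 in Control. In both, liver 4 was highest and liver 1 lowest, as in the fasting list. Bile acid genes had a median SD of 0.36, or 0.22 without livers 1 and 4, against 0.32 in Control and no common order. Cyp7a1, the rate-limiting enzyme of bile acid synthesis, was at 119.6, 196, 244, 239, 118 and 96.3 CPM (SD 0.58 against 0.54 in Control), and Cyp8b1, which sets the share of cholic acid, at 84.8, 244, 364, 212, 193 and 296 CPM (SD 0.73, or 0.37 without liver 1, against 0.76 in Control, 0.63 without Control liver 1). Fgf21, a hormone that the liver releases in fasting and stress, was at 5.53, 26.2, 16.6, 30.1, 34 and 37.8 CPM (SD 1.03, or 0.46 without liver 1, against 1.15 in Control, 0.13 without Control liver 1), with liver 1 far below the others.

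Among clock genes no single order of the livers was shared. Nr1d1, which encodes the clock repressor REV-ERBα, was at 132, 135, 108, 14.9, 103 and 74.1 CPM (SD 1.2, or 0.35 without liver 4, against 0.67 in Control), with liver 4 below the rest. The 13 core clock genes had a median SD of 0.58, or 0.32 without livers 1 and 4, against 0.52 in Control and their output genes 0.69 against 0.66 in Control. Upp2, a uridine phosphorylase under clock control, was at 34.6, 156, 48.8, 369.5, 56.5 and 31.1 CPM (SD 1.4, or 0.92 without liver 4, against 0.68 in Control). Dbp, a clock-driven transcription factor, was at 94, 101, 64.7, 39.6, 56.8 and 26.9 CPM (SD 0.73 against 1.4 in Control). The hour of sampling is not given per animal.

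Interferon-stimulated genes, a further arm of inflammation, had a median SD of 0.40 against 0.35 in Control over 33 members. They were highest in liver 4 for 18 and lowest in liver 5 for 15. Gbp11, a guanylate-binding protein, was at 3.2, 10.3, 4.62, 6.23, 2.88 and 3.25 CPM (SD 0.70, or 0.45 without liver 2, against 0.31 in Control, 0.19 without Control liver 1). Il1b, the cytokine interleukin-1β, was at 5.31, 16.6, 3.24, 5.57, 1.94 and 5.11 CPM (SD 1.0, or 0.63 without liver 2, against 0.69 in Control), with liver 2 highest and livers 4, 1 and 6 close together below it. Igha, the constant region of IgA made by plasma cells, was at 5.39, 11.9, 6.6, 32.8, 7.52 and 8.82 CPM (SD 0.92, or 0.43 without liver 4, against 0.44 in Control), highest in liver 4. Collagen and matrix genes were lowest in liver 1 for 18 of 30, with a median SD of 0.35 against 0.29 in Control. Among cell identity lists the median SD was 0.27 against 0.18 in Control for sinusoidal endothelium, 0.28 against 0.22 in Control for stellate cells and 0.36 against 0.32 in Control for bile duct genes. It was 0.90 against 0.38 in Control for the 5 measured red cell genes, 0.53 against 0.36 in Control for 4 B and plasma cell genes, and 1.0 against 0.69 in Control for 3 neutrophil genes, where it was 0.51 without liver 3. Ccnd1, cyclin D1, was the most variable cell cycle gene at 24.3, 111, 197, 49.3, 156 and 135 CPM (SD 1.15, or 0.76 without liver 1, against 0.60 in Control, 0.39 without Control liver 1), with liver 1 lowest and liver 4 next.

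The rule for naming genes also took several others of large SD. Sult2a7, a sulfotransferase at chr7:14465051-14494230 (GRCm38), was at 144, 7.49, 8.88, 3.08, 17.4 and 0.774 CPM (SD 2.46 against 0.30 in Control), with liver 1 alone far above. Sult2a3 of the same chr7 cluster was at 33.6, 13, 0.96, 12.6, 43 and 4.64 CPM (SD 1.96, or 1.27 without liver 3, against 2.54 in Control, 1.69 without Control liver 1), and Sult2a8 at 294, 153, 149, 29.3, 80.5 and 42.9 CPM (SD 1.25 against 0.55 in Control). Reads of these copies may be split among them, so the values are uncertain. Muc13, a membrane mucin, was at 14.5, 109, 205, 508, 397 and 543 CPM and at most 0.314 CPM in Control. Cib3 was at 0.364, 14.4, 24, 1.03, 2.94 and 16.1 CPM (SD 2.3, or 1.31 without livers 1 and 4, against 0.59 in Control). Agap2 was at 0.946, 8.06, 25.7, 14, 23.6 and 28.3 CPM (SD 1.8, or 0.75 without liver 1, against 0.80 in Control, 0.51 without Control liver 1), and Krt23, a keratin of the bile duct list, at 1.31, 13.7, 10.8, 0.733, 4.82 and 8.82 CPM (SD 1.65, or 0.63 without livers 1 and 4, against 0.63 in Control). Livers 1 and 4 were the lowest for Cib3 and Krt23, and liver 1 for Muc13 and Agap2. The predicted genes Gm47528, Gm10680 and Gm13775 also met the rule for naming, with SDs of 1.84, 1.77 and 1.4. Ugt1a9, a glucuronidation enzyme whose exons overlap those of other Ugt1a genes, was at 76.1, 44.4, 38.9, 2.34, 69.4 and 44.1 CPM (SD 1.84, or 0.43 without liver 4, against 0.67 in Control), with liver 4 far below.

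Some genes stayed widely spread whichever single liver was left out. Arrdc3, an arrestin-like regulator, was at 144, 234, 111, 20.5, 39.5 and 43.1 CPM (SD 1.33 against 0.50 in Control). Wfdc21, a secreted inhibitor-like protein, was at 379.8, 94.9, 61.8, 296, 92.4 and 27.4 CPM (SD 1.42, or 0.83 without livers 1 and 4, against 0.29 in Control). Ciart, a repressor of the circadian clock, was at 4.8, 13.4, 1.8, 21.2, 9.9 and 1.86 CPM (SD 1.45 against 1.9 in Control, 1.33 without Control liver 1). The female-biased genes Cyp3a16, at 1.6, 15.5, 8.64, 5.2, 24.6 and 39.9 CPM, Hao2, at 5.68, 35.5, 27.6, 2.42, 29.5 and 28.6 CPM, and A1bg, at 1.46, 2.57, 13.1, 22, 3.76 and 6.04 CPM, had SDs of 1.64, 1.59 and 1.43. Without livers 1 and 4 the SD was 0.94 for Cyp3a16 and 0.16 for Hao2. Their Control SDs were 3.35, 2.22 and 2.22, or 2.15, 0.79 and 1.91 without Control liver 1. Each of these 6 genes ordered the livers differently.

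At the other end, core cell functions were close to level. Among genes whose mean count reached 1000 the smallest SDs belonged to Mlycd, Atp5b, Ilk, Zfp598 and Ndufa9. Mlycd, malonyl-CoA decarboxylase, was at 136, 144, 142, 141, 138 and 146 CPM (SD 0.0369 against 0.115 in Control). Atp5b, the catalytic subunit of ATP synthase, was at 1297, 1272, 1297, 1208, 1302 and 1249 CPM (SD 0.0422 against 0.12 in Control). Ilk, integrin-linked kinase, Zfp598, a ribosome quality control ligase, and Ndufa9, a complex I subunit, had SDs of 0.0443, 0.0443 and 0.0484. In Control their SDs were 0.0749, 0.19 and 0.0871. With the counting variance taken off, the SDs of Ilk and Zfp598 were 0.0017 and 0, so their spread cannot be told apart from counting noise. The 33 nuclear-encoded respiratory chain genes had a median SD of 0.18 against 0.14 in Control, and none reached 1. The 36 ribosomal protein genes had a median SD of 0.20 against 0.14 in Control, but moved as a block: 35 were highest in liver 2 and 24 lowest in liver 5, with list levels of -0.12, 0.30, -0.04, 0.14, -0.22 and -0.06 and a mean pairwise correlation of 0.82. Rpl3 varied most of them (SD 0.35, or 0.17 without liver 1) and Rpl7 least (SD 0.12). Short transcripts of high abundance share sensitivity to RNA and library quality, which was not tested. The median SD of 14 heat shock genes was 0.26 against 0.43 in Control. Among 16 genes of the unfolded protein response 11 were lowest in liver 2, with a median SD of 0.42 against 0.32 in Control, or 0.25 without that liver. Hspa5, the main chaperone of the endoplasmic reticulum, was at 246, 274, 583, 470.3, 599 and 597 CPM (SD 0.59), and Hyou1 at 56.9, 37.5, 111, 69.4, 116 and 105 CPM (SD 0.65).

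Globin transcripts, which mark blood in the sample, were highest in the same livers as the Saa genes. Hbb-bs was at 219, 98.2, 41.3, 216, 77.7 and 104 CPM (SD 0.92, or 0.61 without livers 1 and 4, against 0.33 in Control), and Hba-a1 at 61.6, 30.6, 12.8, 66.8, 22.1 and 31.3 CPM (SD 0.90, or 0.60 without livers 1 and 4, against 0.33 in Control). The summed level of the 8 listed red cell genes was 387, 183, 87.7, 381, 153 and 198 CPM in livers 1 to 6 and 133 to 244 CPM in Control. Neutrophil genes summed to 42.1, 35.5, 11.6, 40.9, 30.2 and 24.3 CPM in iTgMir483 and 6.19 to 11.8 CPM in Control, with Ly6g at 0 in 5 of the 6 livers. The levels of the neutrophil and red cell lists were lowest in liver 3, as was that of the acute-phase list. The 10 most abundant genes took 15.1, 19, 21.1, 16.1, 19.8 and 21.9% of the counts of livers 1 to 6, lowest in livers 1 and 4. Mitochondrially encoded genes took 3.01, 3.86, 2.3, 1.62, 3.2 and 2.57%, lowest in liver 4. The part of blood content, neutrophils or library composition in the spread was not tested.

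The level of Mir483 itself was set against every other gene across the 6 livers. In a quasi-likelihood fit of counts on log2 Mir483 CPM (edgeR), 0 of 10456 genes were called (0%), with a smallest adjusted p of 0.809 and 634 genes at an unadjusted p under 0.05. The lowest p values with a positive slope belonged to Sult2a1, Hprt and Insig2, with slopes of 1.34 ± 0.20, 0.70 ± 0.14 and 0.97 ± 0.20 log2 units per log2 unit of Mir483 (SE). Those with a negative slope belonged to Gabbr2, Abca8a and Acsm1, with slopes of -0.90 ± 0.14, -1.36 ± 0.25 and -0.81 ± 0.16. DESeq2 called 27 genes in the same 6 libraries, and limma-voom 0, and without liver 3 edgeR called 7. Saa2 had a slope of -7.29 ± 1.84 (SE, edgeR adjusted p = 0.809). Livers 1 and 4, high in Saa2, were among the 3 lowest in Mir483, yet liver 3, with 26.5 CPM of Mir483, had the lowest Saa2.

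Igf1 was at 126, 124, 212, 142, 91.5 and 149 CPM in livers 1 to 6 (SD 0.40) and 315 to 576 CPM in Control (SD 0.34). Across the 6 livers Pearson's r between the log2 levels of Mir483 and Igf1 was -0.44 (two-sided exact permutation p = 0.442) and Spearman's rho -0.429 (exact permutation p = 0.419). Without the 2 livers farthest from the median Mir483 level, r was -0.497 over 4 livers. No relation between the transgene's level and Igf1 was thus detected over these 6 livers, where the smallest attainable p was 0.00278. Within the insulin-like growth factor genes Igfbp1 and Socs2, a feedback inhibitor of growth hormone signalling, varied most, the latter at 3.42, 14.4, 23.9, 10.3, 12.1 and 23.4 CPM (SD 1.01, or 0.55 without liver 1, against 1.14 in Control). Igfbp4 varied least (SD 0.19, or 0.09 without liver 4).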

How the data were processed

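RNA from 12 female livers was sequenced as polyadenylated, strand-marked libraries, all from 1 pool. The authors aligned reads with STAR to GRCm38 and deposited raw gene counts per library (Ensembl gene annotation). The strand column used is not given in the sources used here. Sample titles gave the group and replicate number. Symbols came from GENCODE mouse release 21. TMM factors over all 12 libraries (edgeR 4.0.16, R 4.3.3) gave log2 CPM with a prior count of 2, and the SD of each gene was taken within a group. Deviations were compared with limma 3.58.1, slopes with edgeR's quasi-likelihood test, and 1 value a library with exact permutation tests, all two-sided. Each test across genes was tested on simulated data. Alternatives were other scaling (RLE), prior, minimum counts and centring, DESeq2 1.42.0, limma-voom, a replicate block, and leaving out libraries.

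Genes named were Mir483, Igf1, the 25 with the largest SD, 10 more with the largest SD without their farthest library, the 5 widest and 5 narrowest abundant genes, those called or with the smallest p in a test, and the 4 widest members and the narrowest of each list described. A few genes that this rule would name are not reported here, but stay in all counts and lists. The genes, lists and members were chosen with earlier results of these data known, and the values without both livers numbered 1, without iTgMir483 livers 1 and 4, and of Control SDs without Control liver 1 were added after seeing the data. A count interval covers counting error only, and the total counts given above set the depth.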

Additional observations from a re-analysis of the deposited data

Results flagged for a closer look

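Among 93 sets of 6 values (47 genes named by the rule, 44 list levels and the distances of each group), 7 had a highest or lowest library whose gap to its neighbour, divided by the range, passed Dixon's 95% value for 6 samples. The genes were named partly for their SD over these livers and the list levels are correlated, so the 5% rate that holds for independent sets does not apply, and the ratios are descriptions. Cidec had a ratio of 0.641, with liver 1 lowest at 3.13 CPM. Ugt1a9 had 0.805, with liver 4 lowest at 2.345 CPM, and its exons overlap other Ugt1a genes. The level of the major urinary protein list had 0.632, and that of the pericentral list 0.688, both with liver 1 highest, and Control liver 1 was the highest of its group for both lists. The glucocorticoid list had 0.638 and the class I list 0.636, both with liver 4 highest. The distance of Control liver 1 from the other Control livers had 0.708. Of these, 3 ratios belong to liver 1, 3 to liver 4 and 1 to Control liver 1.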

How the results depend on the processing

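With the 12 libraries as deposited, 2 genes were called for a difference in spread. With a minimum mean count of 500 in each group the count was 1, Sult2a1, since the Saa genes were not tested. It was 0 with deviations from the group median, 0 without both libraries numbered 1 and 0 without iTgMir483 livers 1 and 4, and from 0 to 4 with 1 library left out. Sult2a1 was also called, with the smaller spread in iTgMir483, without any 1 of Control livers 2 to 6 or iTgMir483 livers 3 or 5, but not without Control liver 1. Orm2 was called without Control liver 1 or iTgMir483 livers 5 or 6. The replicate block gave 4 calls, adding Orm2 (limma adjusted p = 0.0315) and Sult2a1 (0.0252). Replicate numbers did not pair the livers throughout: deviations of same-numbered livers correlated at 0.517 for number 1, 0.236 for number 5 and 0.00557 to 0.0563 for the rest. Only for number 1 was the same-numbered Control liver the one with the highest correlation. The labels do not say whether the livers numbered 1 shared a litter. The mean distance between groups differed by 0.0259 to 0.101 with 1 library left out, passing without Control liver 1 alone, and reversed to -0.0135 without iTgMir483 livers 1 and 4. Of the 50 most variable genes, 22 stayed among the top 50 with a minimum mean count of 500, which tests fewer genes, 22 without livers 1 and 4, and 35 to 46 with 1 liver left out. Lists above the median of all genes numbered 40 to 42 of 44 with 1 liver left out. For the slope on Mir483, DESeq2 called 27 genes, limma-voom 0, and edgeR 0 to 7 with 1 liver left out, where 7 was without liver 3. Pearson's r of Mir483 with Igf1 ran from -0.564 to -0.238. The cause of these differences was not tested beyond what is named. Depth limits genes below the minimum count, which were not described.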
